A study of Homo sapiens with 12 samples.

Results

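OAS1, OAS2, OAS3, STAT2, IRF1, IRF3, IRF7 and IRF9 are the oligoadenylate synthetases and the signaling factors that act around them in the interferon response. These 8 genes were taken by gene name from deposited expression tables of 60504 genes, each matched a single identifier, and all 8 passed the filter on low values in every comparison. The tables hold RNA sequencing of 12 libraries of T24, a human cell line established from a bladder carcinoma. In the knockout comparison, 2 libraries labelled U11 knockout (U1 and U2) were set against 2 libraries of untreated T24 cells (T1 and T2). In the overexpression comparison, 6 libraries labelled U11 overexpression were set against 2 libraries of untreated T24 cells (T24P3 and T24-4). These 6 libraries, called the overexpression libraries below after their label, carry the line labels 79, 86 and 87 in their titles, with 2 libraries each, and the sources used here do not say what these labels stand for. According to the study's methods, the U11 gene was cut with CRISPR/Cas9 and U11 was overexpressed from a stably transfected plasmid, and in both cases cells grown from a single clone were selected. An effect of U11 and a property of the selected clone therefore cannot be told apart within either comparison. U11 is the small nuclear RNA of the minor spliceosome that recognizes the start of a rare class of introns.

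Interferons bind receptors on the cell surface, and the kinases on those receptors switch on STAT proteins. STAT2, a STAT partner and IRF9 form the complex ISGF3, which binds the interferon-stimulated response element (ISRE) in the promoters of many antiviral genes. IRF3 and IRF7 act one step earlier, since they switch on the interferon genes after RNA or DNA sensors have been triggered, and IRF7 is itself induced by ISGF3. IRF1 is induced mostly through the gamma-activated site (GAS), the element bound by STAT dimers, and drives antigen presentation genes. The OAS enzymes are products of this pathway: on binding double-stranded RNA they make a short oligoadenylate that activates RNase L, which cuts cellular and viral RNA.

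The elements named above were looked for in the promoters of these genes, and stretches chosen among the matches are printed because the OAS genes, IRF1 and IRF9 were lower together in the overexpression comparison. RefSeq promoter sequences (GRCh38.p14, from 250 bases before to 50 after the start) were found for 5 of the 8 genes, namely OAS1, OAS3, STAT2, IRF1 and IRF9. The other 3 were not searched. Both strands were searched for the ISRE core GAAANNGAAA, for the same half-sites one base apart (GAAANGAAA) and for the GAS core TTCNNNGAA. Among 35116 promoters of the same length, 3.57% held the ISRE core, 3.12% the one-base form and 7.66% the GAS core. Each window below is 30 bases on the strand of the gene, with the matched letters in capitals. In the first OAS3 window a one-base form and an ISRE core overlap.
OAS1, chr12:112906932-112906961, plus strand, one-base form: cctcccttctgagGAAACGAAAccaacagc
OAS3, chr12:112938319-112938348, plus strand, both ISRE forms: ctagaaaGAAACGAAACTGAAAgcagggaa
OAS3, chr12:112938444-112938473, plus strand, ISRE core: gttcggagagccgggcggGAAAACGAAAcc
IRF1, chr5:132490878-132490907, minus strand, GAS core: acagcctgatTTCCCCGAAatgacggcacg
IRF9, chr14:24161192-24161221, plus strand, GAS core: accacgtgatTTCTGGGAAaaggccctccc
The OAS1 window and both OAS3 windows lie before the RefSeq start but overlap exons of longer transcripts of the same gene in the GENCODE annotation, whereas the IRF1 and IRF9 windows overlap no exon of their gene. No match was found in the STAT2 window, which says only that these letters are not in it. A match is a description of the letters and was not tested as a binding site.

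U11 itself was examined first, as a check of the labels. The summed level of the 2 entries named RNU11 was 21.4 and 23.8 TPM in the knockout controls T1 and T2, and 31.6 and 37.4 TPM in U1 and U2. TPM gives the share of a gene in a library after division by its length, so that levels can be compared between genes. U11 was thus higher, not lower, in both libraries of the knockout label. In T1, T2, U1 and U2 all of it lay in the entry ENSG00000274978, with 0.0 TPM in ENSG00000270103. The entry ENSG00000274978, the 1 that passed the filter there, had a log2 fold change of 0.59 (adjusted P = 0.0626 in limma), called without adjustment only. The sample labels give polyA RNA as the molecule, and how well these libraries capture U11 was not tested. Within these tables, every direction given below for U1 and U2 rests on the knockout label. According to the study's methods, U11 was also measured by quantitative PCR, and the knockout clone was chosen by its efficiency in that assay. In the overexpression comparison the controls had 0.03 and 0.62 TPM of U11, with 0.18 and 0.41 TPM under line label 79, 3.98 and 3.72 TPM under line label 86 and 61.9 and 53.6 TPM under line label 87. Of the level under label 87, 60.22 TPM in 87-1 and 52.17 TPM in 87-3 lay in the entry ENSG00000270103. U11 under label 79 was no higher than in the upper control, so within these tables the direction rests on the label for these 2 libraries too. Of the epithelial markers, KRT7 was between 1085 and 6703 TPM in the 12 libraries, while EPCAM, an epithelial surface protein, was between 0.09 and 2.32 TPM and 4 uroplakin genes of differentiated urothelium summed to at most 0.4 TPM. CDH1, an epithelial adhesion gene, was at most 0.15 TPM. Markers of leukocytes and fibroblasts summed to at most 1.9 and 1.8 TPM.

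All 8 genes were expressed in every library, between 2.18 TPM (OAS1 in 86-3) and 70.5 TPM (OAS3 in T24P3). In the controls of the overexpression comparison OAS3 was the most abundant (67.2 ± 4.63 TPM, SD, n = 2), followed by IRF7 (44.9 ± 1.84) and IRF3 (43.6 ± 5.17), whose values overlapped. IRF9 (27.6 ± 2.55 TPM) and STAT2 (25.6 ± 0.398) came next, also overlapping, then OAS2 (22.9 ± 0.196) and IRF1 (22.3 ± 0.372), which did not overlap although the gap was under 1 TPM, and OAS1 was lowest (15.5 ± 2.0). The knockout controls had another order, led by IRF7 (21.5 ± 0.349 TPM), IRF3 (17.4 ± 1.18) and OAS3 (17.2 ± 0.0896), of which IRF3 and OAS3 overlapped. OAS2 (7.38 ± 1.06 TPM) and OAS1 (5.55 ± 0.928) were again low. The 4 control libraries are all untreated T24 cells, yet all 8 genes stood 1.69 to 3.9 times higher in the overexpression controls than in the knockout controls. The 10 most abundant genes held 45.5% to 49.6% of all TPM in the libraries of the knockout comparison and 7.1% to 7.6% in the others, and KRT7 was lower there as well. Levels were therefore compared only within a comparison.

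**Figure D1:**
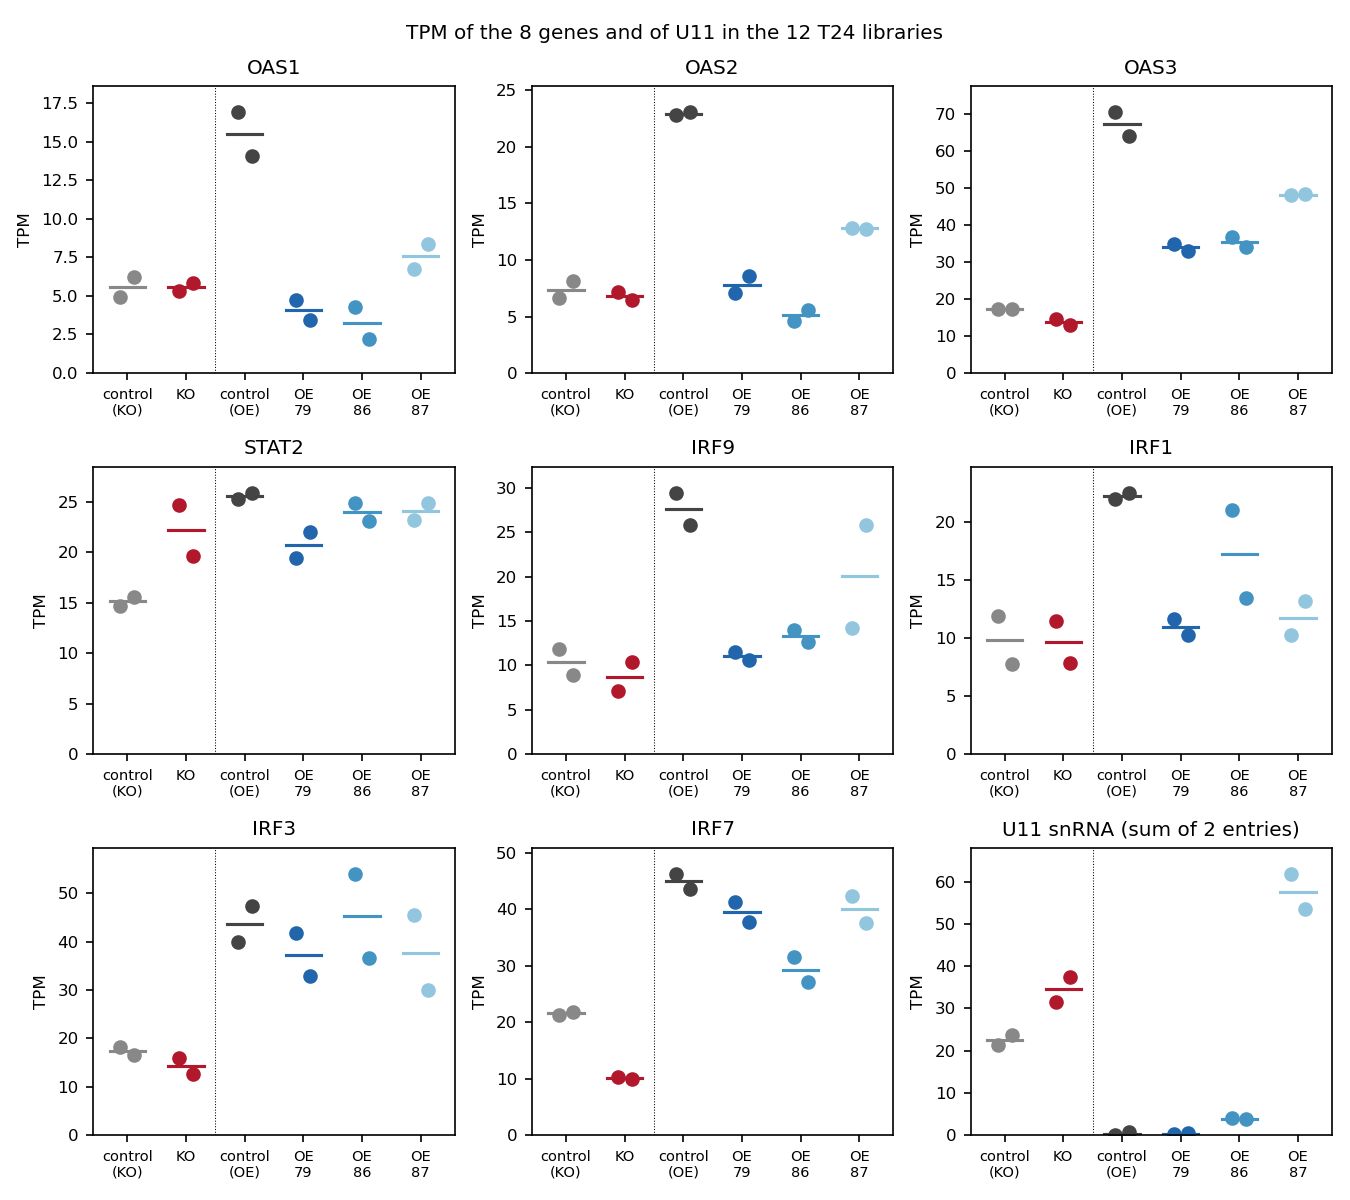
Each panel plots the level in TPM (vertical axis, from 0) of 1 gene, or of U11 as the sum of its 2 entries, for the 12 libraries (points) by group, with the group mean as a line; KO marks the libraries labelled U11 knockout and OE those labelled U11 overexpression, with line labels 79, 86 and 87. OAS1, OAS2 and OAS3 are higher in both overexpression controls than in any of the 6 overexpression libraries, and IRF7 is lower in both libraries labelled U11 knockout than in their controls.

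In the libraries labelled U11 knockout, IRF7 was reduced to about 0.47 of the control level, whereas none of the OAS genes was called. IRF7 (ENSG00000185507, chromosome 11, 612553 to 615999, minus strand of hg38) stood at 21.3 and 21.8 TPM in T1 and T2 and at 10.3 and 9.998 TPM in U1 and U2. The spread within each pair was under 1 TPM, and the pairs lay more than 10 TPM apart. The log2 fold change was -1.02 (standard error 0.1), with adjusted P = 0.0171 in limma. Genes were called differentially expressed at an unadjusted P under 0.05 with a change of at least 1.5-fold, and a P adjusted over all genes by the Benjamini-Hochberg method is given beside each call. IRF7 was the only 1 of the 8 genes called in this comparison. Of all 14356 genes tested, 11.8% were called, 8.61% higher and 3.15% lower. With the adjusted P in the call IRF7 was again the only one of the 8 genes, against 6.85% of all genes.

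STAT2 and the other factors were not called. STAT2 (ENSG00000170581, chromosome 12, 56341597 to 56360155, minus strand) was at 14.6 and 15.6 TPM in T1 and T2 and reached 24.7 and 19.6 TPM in U1 and U2. Both of the latter were above both controls, but the 1.43-fold difference was under the fold threshold (log2 fold change 0.51, adjusted P = 0.0968). Without library U2, which leaves 1 library under the knockout label, the log2 fold change of STAT2 was 0.67. IRF9, the other subunit of ISGF3 measured here, stood at 11.9 and 8.87 TPM against 7.11 and 10.4 TPM, overlapping groups with a log2 fold change of -0.23 (adjusted P = 0.538). IRF3 was at 18.2 and 16.5 TPM in T1 and T2, against 15.9 and 12.6 TPM under the knockout label (log2 fold change -0.27, adjusted P = 0.279). IRF1 overlapped almost fully, with 11.9 and 7.74 TPM in the controls and 11.5 and 7.83 TPM in the others.

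The OAS genes were not called in this comparison, and the values of OAS1 and OAS2 overlapped between the groups. OAS1 was at 4.9 and 6.21 TPM in T1 and T2, against 5.28 and 5.81 TPM in U1 and U2 (adjusted P = 0.986). OAS2 was at 6.63 and 8.12 TPM against 7.15 and 6.47 TPM (log2 fold change -0.1, adjusted P = 0.694). OAS3, the longest of the enzymes, was at 17.2 and 17.3 TPM against 14.7 and 13.0 TPM, so its groups did not overlap, with a log2 fold change of -0.3 (adjusted P = 0.163). In all, 4 of the 8 genes did not overlap between groups, while 60.2% of all genes tested did not. The median of all genes was shifted by 0.108 on the log2 scale in this comparison, and by 0.012 with median ratio scaling. Relative to that median the log2 change of IRF7 was -1.12, of OAS3 -0.41, of IRF3 -0.38 and of STAT2 0.41. With median ratio scaling 810 genes were called higher and 674 lower, in place of 1236 and 452.

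In the libraries labelled U11 overexpression, OAS1, OAS2, OAS3, IRF9 and IRF1 were down-regulated and no gene of the 8 was up-regulated. Of all 15768 genes tested, 1.93% were called, 1.16% lower and 0.767% higher. After adjustment over all genes none of the 8 genes was called, with adjusted P between 0.255 and 0.947 in limma, against 0.165% of all genes, while 5 of the 8 had an unadjusted P under 0.05. The median log2 fold change was -0.76 over the 8 genes and -0.017 over all genes. Each of the 6 libraries entered this fit on its own, although 2 of them share each line label. Its P-values may therefore overstate the precision. With 1 mean per line label, 329 genes were called in all, in place of 304, and 7 after adjustment, in place of 26. Whether IRF9 and IRF1 stayed called with these means is not given here. In 6 of the 8 genes the overexpression libraries and the controls did not overlap, all 6 lower, against 9.87% of all genes (5.24% lower). Without the 2 libraries of label 79, an alternative chosen after seeing the data, the same 5 genes were called lower, against 1.25% of all genes, with log2 fold changes of -1.47 for OAS1, -1.38 for OAS2, -0.69 for OAS3, -0.75 for IRF9 and -0.63 for IRF1.

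OAS1 (ENSG00000089127, chromosome 12, 112906777 to 112933222, plus strand) measured 16.9 and 14.1 TPM in the controls. Its 6 overexpression libraries ran from 2.18 to 8.39 TPM with a median of 4.52 TPM, so the highest of them was below the lower control. The log2 fold change was -1.55 (standard error 0.36, adjusted P = 0.325), a 2.93-fold lower level on the log2(TPM + 1) scale. OAS2 (ENSG00000111335, chromosome 12, 112978395 to 113011723, plus strand) reached 22.8 and 23.1 TPM in the controls and ran from 4.64 to 12.8 TPM with a median of 7.82 TPM. The controls differed by less than 1 TPM and no overexpression library reached 13 TPM. Its log2 fold change was -1.41 (standard error 0.34, adjusted P = 0.377). OAS3 (ENSG00000111331, chromosome 12, 112938352 to 112973249, plus strand) lies between OAS1 and OAS2 and stood at 70.5 and 63.9 TPM in the controls. The overexpression libraries ran from 33.0 to 48.2 TPM with a median of 35.8 TPM, again without overlap. Its log2 fold change was -0.78 (standard error 0.17, adjusted P = 0.255), smaller than those of its neighbours, a difference between genes that was not tested. An antisense entry, RP1-71H24.1, overlaps all 3 OAS genes and was at most 0.08 TPM in any library.

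IRF9 (ENSG00000213928, chromosome 14, 24161053 to 24166565, plus strand) was at 29.4 and 25.8 TPM in the controls and ran from 10.6 to 25.9 TPM with a median of 13.3 TPM in the overexpression libraries. Of the 6, 5 were at 14.3 TPM or below and library 87-3 lay within the range of the controls. Its log2 fold change was -0.91 (standard error 0.28, adjusted P = 0.546), and without control T24P3 it was -0.82 and no longer called. A second entry on the same strand, ENSG00000259529, covers IRF9 and was between 0.77 and 8.37 TPM, so reads may be split between them. With both added, the controls had 33.5 ± 2.07 TPM (SD, n = 2) and the overexpression libraries 19.7 ± 5.26 TPM (SD, n = 6). STAT2 was at 25.3 and 25.9 TPM in the controls and ran from 19.4 to 24.9 TPM. These groups did not overlap either, but the log2 fold change was only -0.16 (standard error 0.11, adjusted P = 0.91).

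IRF1 (ENSG00000125347, chromosome 5, 132481609 to 132490798, minus strand) was at 22.0 and 22.5 TPM in the controls and ran from 10.3 to 21.1 TPM with a median of 12.4 TPM. Library 86-1, the highest, was less than 1 TPM below the lower control and the other 5 were at 13.5 TPM or below. The log2 fold change was -0.74 (standard error 0.23, adjusted P = 0.587). Without control T24P3 it was -0.75 and without T24-4 it was -0.72, and in neither case was IRF1 called, so that 3 of the 8 genes were called without T24P3. IRF7 was at 46.2 and 43.6 TPM in the controls and ran from 27.0 to 42.4 TPM, lower in all 6 libraries with a log2 fold change of -0.32 (adjusted P = 0.889). IRF3 (ENSG00000126456, chromosome 19, 49659569 to 49665875, minus strand) was at 40.0 and 47.3 TPM in the controls and ran from 29.9 to 54.0 TPM, around both of them. Its start region overlaps BCL2L12 on the other strand, which was between 39.7 and 47.7 TPM in these libraries.

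The overexpression libraries belong to 2 series by the number that opens each title, R17018 and R18019, and each series holds 1 control and 1 library of each line label. Set against the control of its own series, the OAS1 log2 difference was -1.53 in R17018 and -1.57 in R18019. OAS2 gave -1.47 and -1.34, and OAS3 gave -0.82 and -0.74. IRF9 gave -1.1 and -0.73, IRF1 -0.65 and -0.83, and IRF7 -0.27 and -0.36. For these genes the direction was the same in both series. IRF3 was 0.22 higher in R17018 and 0.51 lower in R18019 (log2 difference -0.51), so its direction depended on the series.

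**Figure D2:**
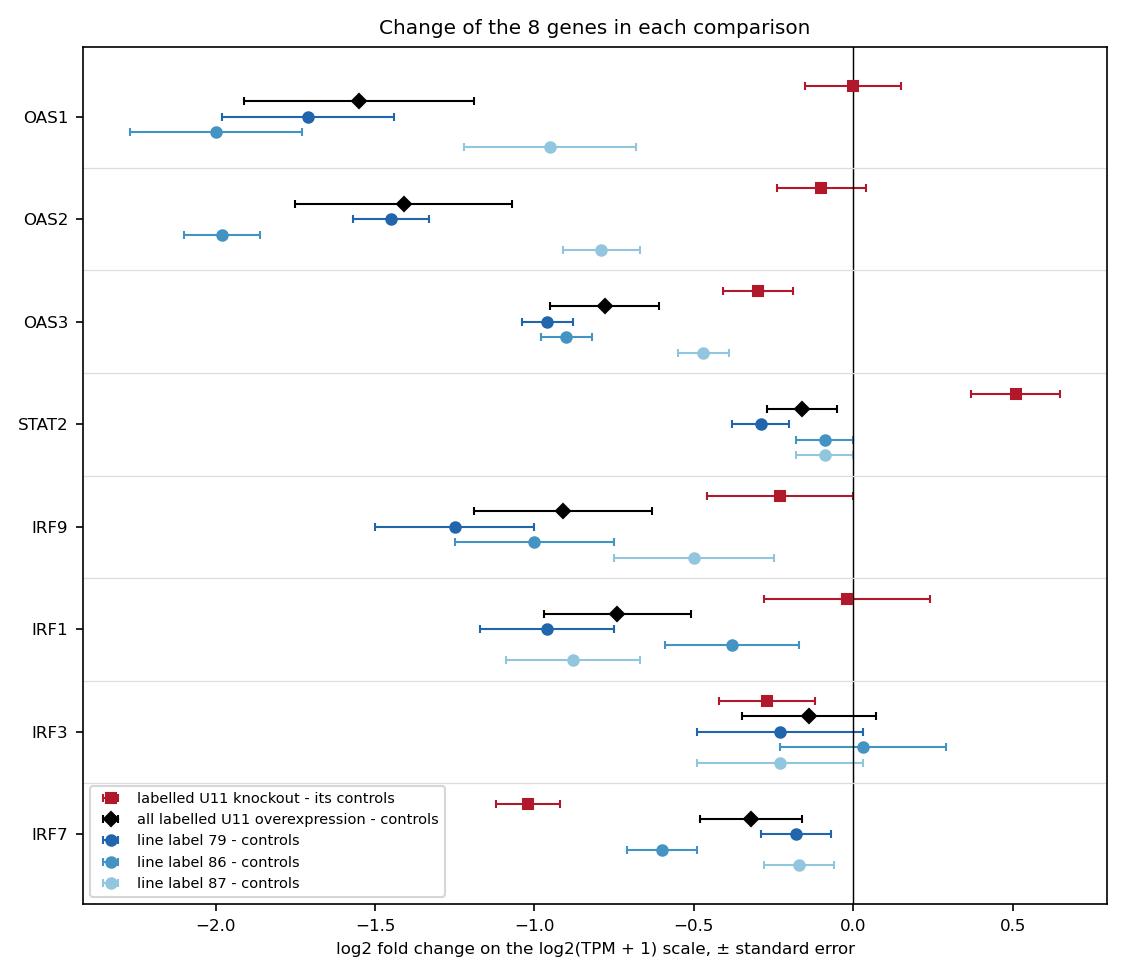
The horizontal axis gives the log2 fold change on the log2(TPM + 1) scale with its standard error (bars) for each of the 8 genes (rows), with squares for the libraries labelled U11 knockout, diamonds for all 6 overexpression libraries and circles for each line label, all against the controls of their comparison. OAS1, OAS2 and OAS3 lie left of 0 for every line label, nearest to 0 for label 87, and IRF7 is the gene farthest left in the knockout comparison at -1.02.

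The line labels differed in how far the OAS genes were reduced. Under label 79, OAS1 was at 4.74 and 3.41 TPM, OAS2 at 7.04 and 8.6 TPM and OAS3 at 34.8 and 33.0 TPM. Under label 86, OAS1 was at 4.31 and 2.18 TPM, OAS2 at 4.64 and 5.57 TPM and OAS3 at 36.8 and 34.0 TPM. Under label 87, OAS1 was at 6.75 and 8.39 TPM, OAS2 at 12.8 TPM in both libraries and OAS3 at 48.1 and 48.2 TPM. For all 3 OAS genes the controls were highest and label 87 came next, without overlap between these groups or with the others. Over all genes, 48.2% did not overlap between label 87 and the controls. Of the 15768 genes, 8319 did not overlap between label 79 and the controls and 6841 between label 86 and the controls. Between labels it was 8426 genes for 87 and 79, 7763 for 87 and 86 and 8713 for 86 and 79. Labels 79 and 86 overlapped for OAS1 and OAS3, whereas for OAS2 both libraries of label 86 were below both of label 79.

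Each label was compared with the same 2 controls, so the values below share them. Under label 79, 5 of the 8 genes were called lower with and without adjustment, against 7.95% of all genes called (5.52% lower) and 5.63% called after adjustment. They were OAS1 (log2 fold change -1.71, adjusted P = 0.0129), OAS2 (-1.45, adjusted P = 0.00154), OAS3 (-0.96, adjusted P = 0.00154), IRF9 (-1.25, adjusted P = 0.0288) and IRF1 (-0.96, adjusted P = 0.0385). IRF9 was at 11.5 and 10.6 TPM and IRF1 at 11.6 and 10.3 TPM in these libraries, or 0.4 and 0.49 of the control mean. With its overlapping entry added, IRF9 averaged 17.2 ± 2.49 TPM (SD, n = 2) under label 79, against 33.5 ± 2.07 TPM in the controls. Label 86 stood at 17.4 ± 2.2 TPM by that sum. CDH5, an endothelial cadherin, was at 34.1 and 32.2 TPM under label 79 and between 3.1 and 5.3 TPM in the other libraries of this comparison, while the other endothelial markers, PECAM1 and VWF, were at or near 0 in all of them. Its part in the result was not tested.

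Under label 86, 5 of the 8 genes were called lower, against 3.6% of all genes (2.01% lower), and 3 of them after adjustment, against 1.37%. OAS1 (log2 fold change -2.0, adjusted P = 0.023), OAS2 (-1.98, adjusted P = 0.00206) and OAS3 (-0.9, adjusted P = 0.00582) passed both rules. IRF9, at 14.0 and 12.6 TPM, had a log2 fold change of -1.0 (adjusted P = 0.138). IRF7, at 31.5 and 27.0 TPM, was below every other library of the comparison (-0.6, adjusted P = 0.0515), and its change fell under the fold threshold without control T24P3 (-0.56) or without library 86-3 (-0.5). IRF1 was at 21.1 and 13.5 TPM, one library near the controls and one far below, and was not called (-0.38, adjusted P = 0.517). Without library 86-1, which leaves 1 library under the label, the log2 fold change of IRF1 was -0.68.

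Under label 87, 3 of the 8 genes were called lower, against 5.13% of all genes (3.05% lower), and 1 after adjustment, against 2.65%. OAS2 passed both rules (log2 fold change -0.79, adjusted P = 0.0241). OAS1 (-0.95, adjusted P = 0.128) and IRF1 (-0.88, adjusted P = 0.0892) were called without adjustment only, and OAS1 was not called without library 87-1 (-0.81) or without control T24P3 (-0.82). OAS3 was lower by 0.47 on the log2 scale (adjusted P = 0.0345), a 1.39-fold difference that did not reach the fold threshold. IRF9 was at 14.3 TPM in 87-1 and at 25.9 TPM in 87-3 and was not called (-0.5, adjusted P = 0.367). Without library 87-3, which leaves 1 library under the label, the log2 fold change of IRF9 was -0.9.

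The differences between labels were tested in the same fit. OAS2 was higher under label 87 than under label 86 by 1.18 on the log2 scale (adjusted P = 0.00434) and than under label 79 by 0.65 (adjusted P = 0.0202). It was lower under label 86 than under label 79, with a log2 difference of -0.53 (adjusted P = 0.0353). OAS3 was higher under label 87 than under label 79 by 0.5 (adjusted P = 0.013) and than under label 86 by 0.43 (adjusted P = 0.0291), both under 1.5-fold. OAS1 was higher under label 87 than under label 86 by 1.05 (adjusted P = 0.0787) and than under label 79 by 0.76 (adjusted P = 0.141). An adjusted P under 0.05, with no fold threshold, was reached by 13.5% of all genes between labels 86 and 79, 10.5% between labels 87 and 79 and 6.41% between labels 87 and 86. In an F test over the 3 labels, adjusted P was 0.00424 for OAS2, 0.0152 for OAS3, 0.0531 for IRF7, 0.0812 for OAS1 and at least 0.172 for the other 4 genes. Between labels 87 and 86, 2 of the 8 genes were called higher (OAS1 and OAS2, against 2.99% of all genes higher). Between labels 87 and 79 it was 3 genes (OAS1, OAS2 and IRF9, against 5.64%). That count was 1 without 79-1, without 79-3 or without 87-3. IRF9 was not called in any of these cases (0.81, 0.69 and 0.34), nor was OAS1 without 79-3 (0.57) or 87-3 (0.62), nor OAS2 without 79-1 (0.53). Between labels 86 and 79 it was 0 (against 9.8% in both directions), where limma gave 3 of the 8 genes an unadjusted P under 0.05.

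The wider pathway was described with 9 gene lists holding 118 genes. No gene of the 15 interferon genes was expressed highly enough to be tested in either comparison, and the highest value of any of them was 1.07 TPM (IFNE in 79-3). Among partners of the OAS enzymes, ABCE1, the RNase L inhibitor, was the most abundant, at 137 and 142 TPM in the overexpression controls and with a log2 fold change of 0.04. OASL is a relative of the OAS enzymes that makes no oligoadenylate. It stood at 8.27 and 9.69 TPM in T1 and T2, against 54.6 and 53.0 TPM in U1 and U2. The log2 fold change of OASL was 2.46 (standard error 0.12, adjusted P = 0.0047), in the comparison in which OAS1, OAS2 and OAS3 were not called. Under the overexpression label OASL differed by line label, at 28.3 and 26.4 TPM for label 79, 11.3 and 13.7 TPM for label 86 and 40.5 and 38.5 TPM for label 87, against 35.3 and 31.5 TPM in the controls. Of the labels, 86 was the one called against them (log2 fold change -1.35, adjusted P = 0.00497). OASL under label 79 was lower by less than the fold threshold (-0.28, adjusted P = 0.199 in limma, unadjusted P = 0.0466).

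Interferon-stimulated effectors, antiviral genes downstream of ISGF3 and the IRF factors, went in both directions under the knockout label. Of 37 tested, 12 were called higher and 6 lower, against 8.61% and 3.15% of all genes, with a median log2 fold change of 0.16 beside 0.11 over all genes. Among those called higher, the largest changes were those of DDX60, a helicase-like antiviral factor, at 10.4 and 15.3 TPM in the controls and 73.8 and 66.2 TPM under the knockout label (log2 fold change 2.38, adjusted P = 0.0116), and IFI44 (1.99, adjusted P = 0.0185). SAMD9, which restricts poxviruses, followed with 1.81 (adjusted P = 0.0519). IFI27, a mitochondrial interferon-induced protein, moved the other way, from 44.5 and 70.3 TPM to 4.88 and 2.33 TPM (log2 fold change -3.69, adjusted P = 0.0156). MX1, the antiviral GTPase named for its change under the overexpression label, fell with it, from 11.4 and 15.4 TPM to 4.48 and 4.31 TPM (log2 fold change -1.4, adjusted P = 0.0225). CDH5 was at 4.9 and 4.7 TPM in these controls and at most 0.1 TPM under the knockout label, and its part in the result was not tested.

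In the libraries labelled U11 overexpression, the effectors that were called were lower. Of 36 tested, 9 were called lower and 0 higher, against 1.16% and 0.767% of all genes, and 34 of the 36 log2 fold changes were negative, with a median of -0.47 beside -0.02 over all genes. The count of 9 was 5 without control T24-4, 6 without control T24P3, 12 without library 87-1, 15 without library 87-3 or with all 12 libraries in 1 fit, and again 9 without label 79. IFI6, a small antiviral membrane protein, was at 155 and 150 TPM in the controls and ran from 29.1 to 48.9 TPM (log2 fold change -2.04, adjusted P = 0.00323). XAF1, a pro-apoptotic interferon target of low abundance, had a log2 fold change of -1.93 (adjusted P = 0.014), and these were the 2 effectors called after adjustment. IFI27 (-2.69, adjusted P = 0.377) and MX1 (-1.85, adjusted P = 0.405) were lower in all 6 libraries. By label, 16 of the 36 effectors were called lower under label 79, 22 under label 86 and 6 under label 87, against 5.52%, 2.01% and 3.05% of all genes, and none was called higher under any label. Under label 87, however, 11 of the 36 log2 fold changes were positive. DDX60 was higher there, at 39.8 and 41.5 TPM against 29.0 and 28.9 TPM in the controls, by less than the fold threshold (log2 fold change 0.47, adjusted P = 0.0379). HERC5, a ligase for the ubiquitin-like protein ISG15, had a log2 fold change of 0.35 (adjusted P = 0.0577). The exonuclease ISG20 had a log2 fold change of 0.17, and of 0.64 without 87-3, which leaves 1 library under the label. Between labels 87 and 86, 16 effectors were called higher and 0 lower, against 2.99% of all genes higher. For labels 87 and 79 it was 17 higher and 0 lower, against 5.64% of all genes higher. For labels 86 and 79 it was 5 higher and 5 lower, against 9.8% of all genes in both directions.

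**Figure D3:**
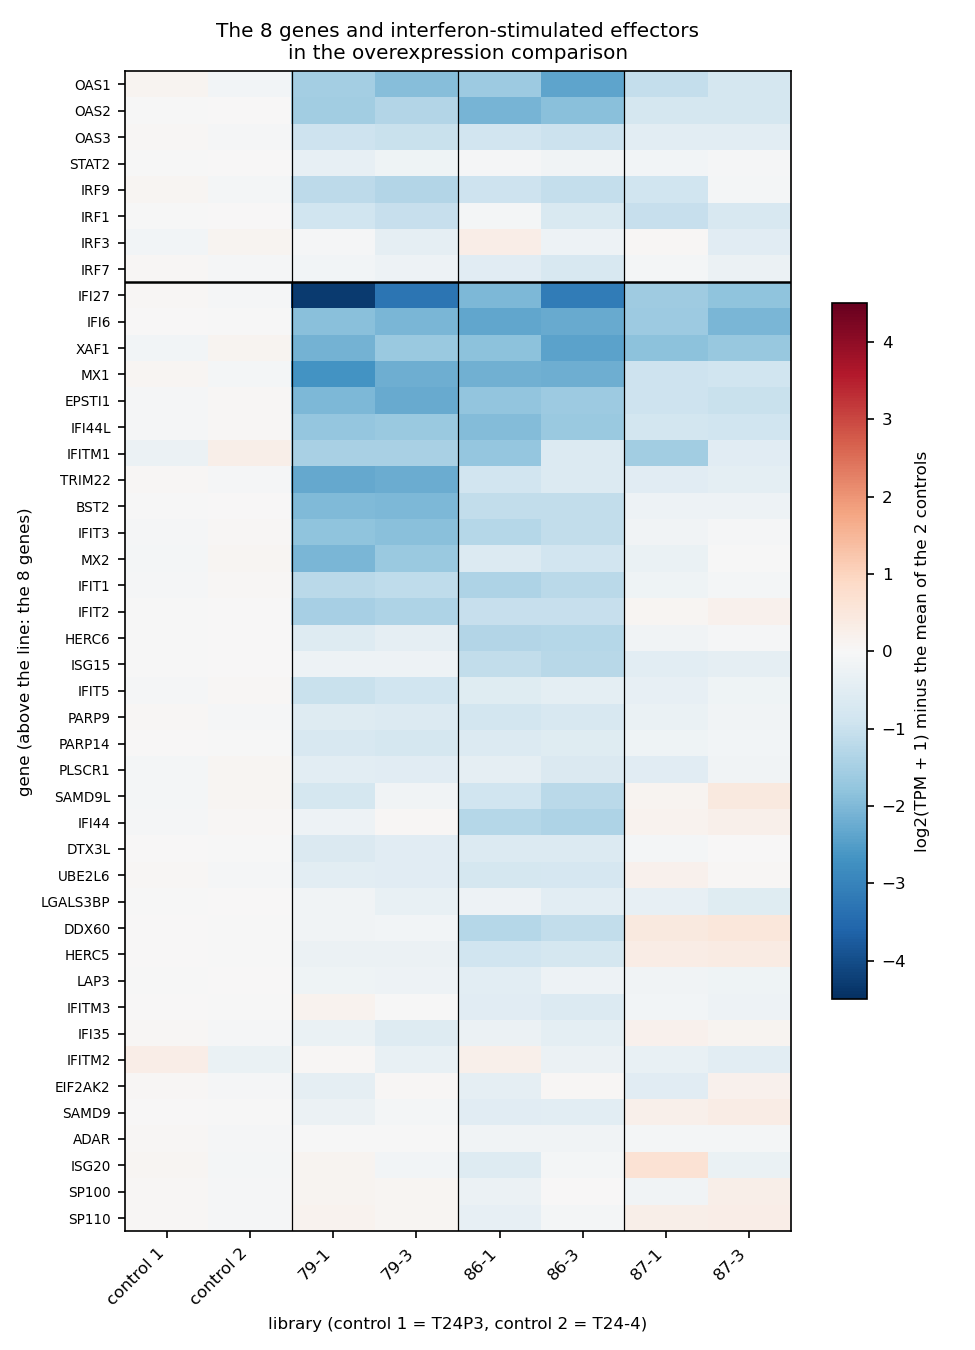
Colours give log2(TPM + 1) minus the mean of the 2 controls for 44 genes (rows; the 8 genes above the line, 36 interferon-stimulated effectors below it, ordered by their mean difference) in the 8 libraries of the overexpression comparison (columns). Values run from -4.3 to 0.64; the columns of labels 79 and 86 are blue for the OAS genes and most effectors, and those of label 87 are paler.

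Upstream of IRF3 and IRF7, 2 of 11 sensing genes were called higher under the knockout label and none lower. The share of all genes called higher was 8.61%, and the median log2 fold change was 0.42, beside 0.11 over all genes. The count of 2 was 1 with FPKM or with median ratio scaling, and it also changed with each single library left out. Leaving out a library, which leaves 1 in its group, moved the median between 0.24 and 0.5. DDX58, the RNA sensor RIG-I, was at 11.5 and 15.1 TPM in T1 and T2, against 30.9 and 27.6 TPM in U1 and U2 (log2 fold change 1.09, adjusted P = 0.0316). DHX58, the related helicase LGP2, had a log2 fold change of 0.6 (adjusted P = 0.0552), and of 0.52 and no call without U1. With all 6 overexpression libraries together none of the 11 was called, with log2 fold changes of -0.07 for the adaptor MAVS and 0.08 for TMEM173 (STING). By label, 3 of the 11 were called lower under label 86 (DDX58, DHX58 and IFIH1), 1 under label 79 (IFIH1) and 0 under label 87, against 2.01%, 5.52% and 3.05% of all genes. The count of 3 under label 86 was 2 with FPKM. DDX58 was at 26.5 and 28.4 TPM in the controls, against 14.8 and 16.6 TPM under label 86 (log2 fold change -0.77, adjusted P = 0.0251). IFIH1, the RNA sensor MDA5, had a log2 fold change of -0.83 under label 86 (adjusted P = 0.0322) and of -0.6 under label 79 (adjusted P = 0.0316). Its call under label 79 was lost with FPKM (-0.49), with median ratio scaling (-0.57), without 79-1 (-0.57) and without T24-4 (-0.56). Between labels 87 and 86 the same 3 sensors were called higher and none lower, against 2.99% of all genes higher. Among 9 receptor and kinase genes, JAK2 was called under the knockout label (0.64, adjusted P = 0.0799) but not without T1 (0.47) or U1 (0.6). IL10RB, a receptor chain of interferon lambda, was called under the overexpression label (-0.59, adjusted P = 0.678). IL10RB was at 30.8 TPM in control T24P3 beside 16.0 TPM in T24-4, and it was not called without T24P3 (-0.14) or without either library of label 79 (-0.56 each). No other STAT or IRF factor was called in the knockout comparison or over all 6 overexpression libraries. The log2 fold changes under the knockout and overexpression labels were 0.12 and 0.07 for STAT3, -0.28 and -0.2 for STAT6, 0.05 and 0.23 for IRF2 and 0.02 and -0.17 for IRF5. The negative regulators SOCS3 (-0.22 and 0.06) and PTPN2 (-0.25 and 0.19) were not called in these comparisons either. By label, USP18, which restrains signaling from the interferon receptor, was the 1 of 5 negative regulators called lower under labels 79 and 86. It was at 15.6 and 17.4 TPM in the controls, 10.57 TPM in both libraries of label 79, 9.0 and 9.24 TPM under label 86 and 16.6 and 18.4 TPM under label 87. The log2 fold change of USP18 was -0.59 under label 79 (adjusted P = 0.0128) and -0.79 under label 86 (adjusted P = 0.0154), and the call under label 79 was lost with FPKM (-0.52), with median ratio scaling (-0.56) and without T24-4 (-0.52).

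Targets of IRF1 and interferon gamma were mostly genes of antigen presentation. Under the knockout label, 3 of 18 were called higher and 1 lower, against 8.61% and 3.15% of all genes, with a median of 0.07. Without U1 it was 1 higher and 1 lower. B2M, the light chain of MHC class I, rose from 320 and 331 TPM to 811 and 573 TPM (log2 fold change 1.06, adjusted P = 0.0371). TAP2, a peptide transporter, fell from 14.79 and 14.96 TPM to 9.41 and 9.29 TPM (-0.62, adjusted P = 0.0404). CD274 (0.98, adjusted P = 0.154) and WARS (0.87, adjusted P = 0.137) were called without adjustment only. CD274 was not called without U1 (0.52) or without T1 (0.7), nor was WARS without U1 (0.43). Under the overexpression label, 3 of 18 were called lower and 0 higher, against 1.16% of all genes lower, with a median of -0.37. The count of 3 was 5 without library 87-1 or 87-3 and 2 without T24P3 or 86-3. The 3 genes were HLA-B (-1.32, adjusted P = 0.0967), HLA-C (-0.66, adjusted P = 0.475) and HLA-F (-0.82, adjusted P = 0.611), which are closely similar in sequence, so that reads may have been exchanged among them. HLA-C was not called without 86-3 (-0.57), nor was HLA-F without T24P3 (-0.71). By label, 7 of the 18 targets were called lower under label 79, with and without adjustment, 7 under label 86, of which 4 after adjustment, and 2 under label 87, of which 1 after adjustment. The shares of all genes called lower were 5.52%, 2.01% and 3.05%, and the median log2 fold changes of the targets were -0.48, -0.44 and -0.06. The count of 2 under label 87 was 1 without either control or without 87-3, and without T24P3 the median turned to 0.02 and TAP2 was called higher (0.64).

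**Figure D4:**
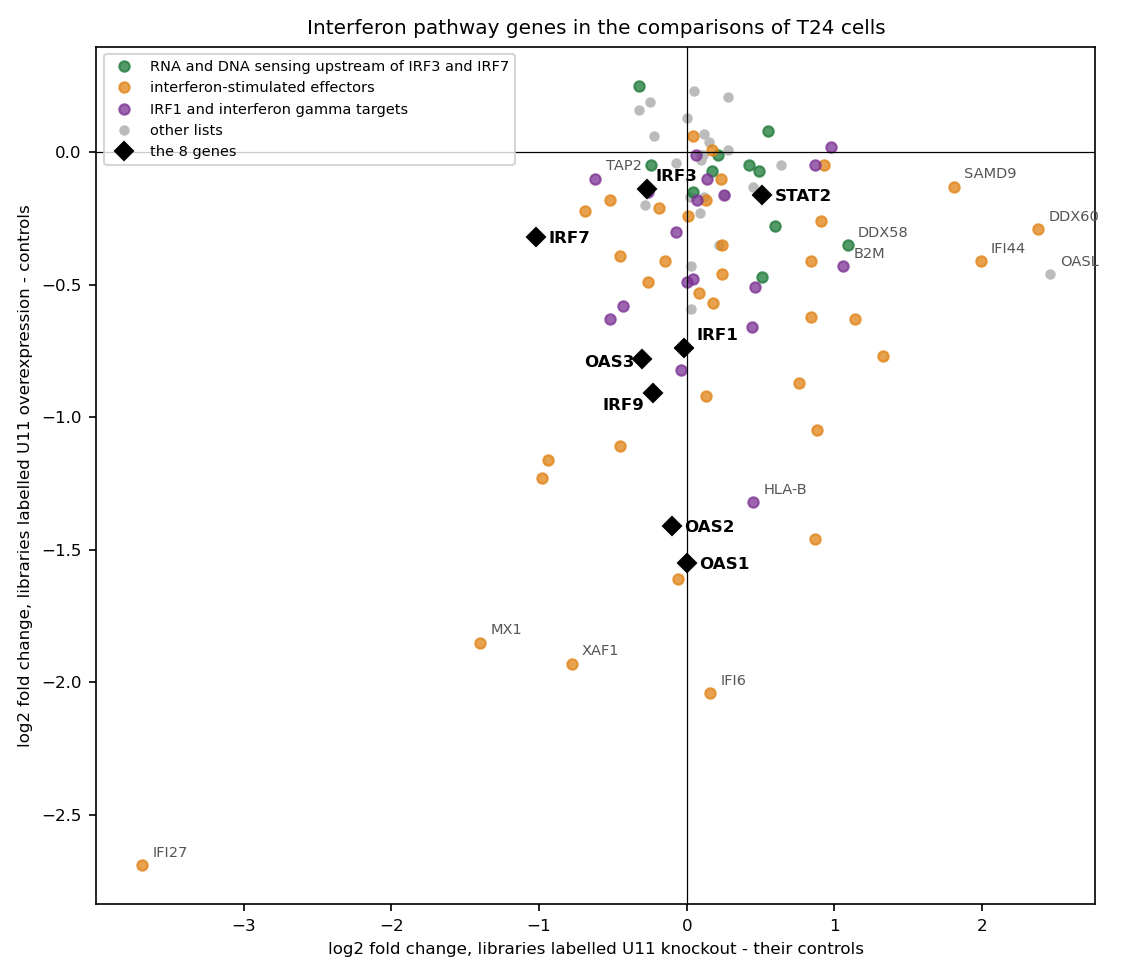
Each point is a gene, with its log2 fold change in the libraries labelled U11 knockout on the horizontal axis and in those labelled U11 overexpression on the vertical axis; diamonds are the 8 genes and circles are 89 genes of 8 pathway lists. OAS1 and OAS2 lie far below 0 on the vertical axis and near 0 on the horizontal one, OASL, DDX60 and IFI44 lie to the right, and MX1, XAF1 and IFI27 lie to the lower left.

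The difference between the comparisons was tested directly as the change under the knockout label minus the change under the overexpression label. Of the 8 genes, 3 were called higher (OAS1, OAS2 and STAT2) and 1 lower (IRF7), against 11.2% of all 16404 genes, and none after adjustment, against 2.72%, while 4 had an unadjusted P under 0.05. The difference was 1.56 on the log2 scale for OAS1 (adjusted P = 0.138), 1.31 for OAS2 (adjusted P = 0.188), 0.67 for STAT2 (adjusted P = 0.0755) and -0.7 for IRF7 (adjusted P = 0.143). OAS2 was not called without T1 (1.18), U1 (1.25) or T24-4 (1.3), nor was STAT2 without U1 (0.51). OASL differed by 2.93 (adjusted P = 0.0397) and IFI6 by 2.2 (adjusted P = 0.00646). The median difference was 0.68 over the 8 genes and 0.121 over all genes.

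The genes most like each OAS gene and IRF9 were looked up by Pearson's r of log2(TPM + 1) over the 8 libraries of the overexpression comparison, among 13366 other genes of at least 1 TPM in all of them. For OAS3 they were HLA-B (r = 0.987), AL590431.1 (0.979), MX1 (0.976), EPSTI1 (0.976) and CABLES1 (0.967). For OAS1 they were AL590431.1 (0.995), OAS3 (0.963), HLA-C (0.95), HELZ2 (0.947) and ZNF239 (0.939). For OAS2 they were PARP9 (0.977), HLA-C (0.964), PRSS23 (0.958), LGALSL (0.957) and ADM (0.955), and for IRF9 TYMP (0.958), USP43 (0.955), ZEB2 (0.953), MRPL30 (0.944) and XRCC2 (0.939). These libraries share controls and line labels, so each r describes the groups as much as the libraries.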

How the data were processed

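RNA of T24 cells was sequenced in 12 libraries. According to the study's methods, the authors trimmed paired reads with fastp, aligned them to hg38 with Hisat2 and ran Stringtie on each library. The labels give polyA RNA as the molecule, whereas the methods describe ribosomal RNA depletion. Each deposited table lists coverage, FPKM and TPM per gene, as computed by the authors. Coverage was used as a signal for depth only and FPKM as an alternative. No read counts were used, and no count model was run. Whether the libraries of a group came from separate cultures is not given in the sources used here, so P-values measure the spread between these libraries, which may be technical, and fewer expressing cells and less RNA per cell cannot be told apart.

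The aligned bases per library, computed from the most common ratio of coverage to FPKM, were between 9.07 and 15.33 gigabases, and the mean coverage of the 8 genes was between 2.5 (OAS1) and 246 (OAS3). Genes of at least 1 TPM in at least 2 of the libraries compared were tested on log2(TPM + 1) with limma 3.58.1 in R 4.3.3 (empirical Bayes with a trend). Fold changes on this scale understate the change of low genes. The 4 knockout comparison libraries and the 8 overexpression comparison libraries were fitted separately, and the line labels in a fit of their own. Which controls belong to which comparison was read from the library titles. The code was tested on simulated data. The 8 genes, the 9 lists and the tests were chosen with earlier results of these data known. From each list and comparison, up to 4 called genes with the largest change were named, or the 2 most abundant where none was called. MX1, so named in the overexpression comparison, was also described in the other, and the genes given for single line labels (OASL, DDX58, IFIH1, DHX58, USP18, DDX60, HERC5, ISG20 and TAP2) were chosen after their values were seen. The pseudocount, unit, scaling, filter, trend, fit and libraries were varied. Leaving out 1 library of a group of 2 leaves 1, so the spread then comes from the other libraries of the fit. One promoter stretch is not reported here.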

Additional observations from a re-analysis of the deposited data

Results flagged for a closer look

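With 6 overexpression libraries per gene, a library whose distance to its nearest neighbour took up an unusual part of the whole range was singled out, which chance does for about 1 in 20 groups. It was found for 2 of the 8 genes, in 16 checks of the highest and the lowest library, and for 5.02% of all 15768 genes tested. The 6 libraries hold 3 line labels. IRF1 was at 21.06 TPM in library 86-1, with a gap of 0.7 of the range, and IRF9 was at 25.89 TPM in library 87-3, with a gap of 0.76 of the range. In both cases the other library of the same line label was with the rest, at 13.47 TPM for IRF1 and 14.28 TPM for IRF9.

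Differences between line labels reached an adjusted P under 0.05 in limma for 3 of the 8 genes, 2 in each of the 3 contrasts, beside 13.5% of all genes between labels 86 and 79, 10.5% between 87 and 79 and 6.41% between 87 and 86. OAS2 was higher under label 87 than under label 86 by 1.18 and than under label 79 by 0.65 on the log2 scale, and under label 86 it was lower than under label 79 (-0.53). OAS3 was higher under label 87 than under label 79 by 0.5 and than under label 86 by 0.43. IRF7 was lower under label 86 than under label 79, with a log2 difference of -0.42.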

How the results depend on the processing

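IRF7 under the knockout label and OAS1, OAS2 and OAS3 under the overexpression label kept their direction under every alternative run and stayed called under all that had a test, except that none of the OAS genes was called with the adjusted P in the call. With that call the count fell from 5 to 0 of the 8 genes under the overexpression label, from 304 to 26 genes in all, and from 1688 to 984 genes in the knockout comparison. The 984 became 147 with the replicate block and 26 with no filter on low values, and 1089 with median ratio scaling. With the replicate block the unadjusted P of IRF7 in limma was 0.00143, in place of 2.09e-04, and its adjusted P there is not given here. The 304 became 173 with FPKM, 175 with at least 1 TPM required in every library and 458 with all 12 libraries in 1 fit. Between labels 86 and 79, 2 of the 8 genes were called with a pseudocount of 0.1, in place of 0. Leaving out 1 library at a time gave 1 to 2 of the 8 genes in the knockout comparison, 3 to 5 under the overexpression label, 0 to 2 between labels 86 and 79, 1 to 3 between labels 87 and 79, and 2 to 5 for the difference between the comparisons. Directions turned for small changes, not all of them near 0. In the main fit OAS1 was -0.29 between labels 86 and 79, and TAP2 was 0.3 under label 87. With FPKM and with median ratio scaling under the knockout label, OAS1 was -0.08 and -0.09, IRF2 -0.04 and -0.05, and IRF5 -0.03 and -0.04, and between labels 87 and 79 IRF7 was -0.01 with median ratio scaling. Leaving out 1 library at a time gave, under the knockout label, log2 changes from -0.14 to 0.15 for OAS1, -0.23 to 0.03 for OAS2, -0.3 to 0.26 for IRF1, -0.48 to 0.01 for IRF9, -0.04 to 0.14 for IRF2 and -0.05 to 0.09 for IRF5. Under the overexpression label it gave -0.4 to 0.05 for IRF5, -0.01 to 0.13 for SOCS3 (-0.08 with line labels 86 and 87 only, chosen after seeing the data) and -0.01 to 0.18 for TMEM173. IRF3 ran from -0.24 to 0.31 for label 86 and -0.52 to 0.07 for label 87 against the controls, from -0.02 to 0.53 between labels 86 and 79, -0.3 to 0.29 between 87 and 79, -0.56 to 0.04 between 87 and 86, and -0.29 to 0.02 between the comparisons. For label 87 against the controls ISG20 ran from -0.29 to 0.64 and TAP2 from -0.04 to 0.64. Between labels 87 and 79 IRF1 ran from -0.08 to 0.25 and IRF7 from -0.07 to 0.1, between 86 and 79 OAS1 ran from -0.66 to 0.08, and between 87 and 86 STAT2 ran from -0.05 to 0.06. IRF9 with its overlapping entry added, an alternative chosen after seeing the data, gave a log2 change of 0.0 under the knockout label. The cause of these shifts was not tested.

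Same-numbered libraries of the knockout comparison deviated together with r = 0.02. Libraries of the same series in the overexpression comparison did so with r from 0.07 to 0.15, all positive but not all above 0.1, and the labels do not say what a series marks, so it was not taken as a pairing. With the replicate block 1706 genes and 1 of the 8 were called in the knockout comparison, and 284 genes and 5 of the 8 under the overexpression label, while CD274 under the knockout label was no longer called (unadjusted P = 0.0549). Among the named genes, no other call was changed in the comparisons for which single values with the block were taken. The targets of IRF1 and interferon gamma called lower under label 87 were 1 with the block, in place of 2. The 9 effectors called lower under the overexpression label were 7 with the block and 7 with the mean of each line label. With 2 libraries in most groups, the number of libraries limits the precision.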
